A study of Mus musculus with 30 samples.

Results

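Heat shock proteins are the chaperones that help other proteins fold, and DNAJ proteins are their co-chaperones. The genes described here were the 72 protein-coding mouse genes, of 55335 in the count table, whose symbol begins with Hspa, Hspb, Hspd, Hspe or Hsph and a number, with Hsp90, or with Dnaja, Dnajb or Dnajc and a number. They comprised 11 genes of the HSP70 family, 3 of HSP110 and its relatives, 3 of HSP90, 2 of the mitochondrial chaperonin, 8 small heat shock proteins, 4 DNAJA, 13 DNAJB and 28 DNAJC genes. Membership followed the symbol and not function: Hspb11, for example, is known as a part of the intraflagellar transport machinery. Of the 72 genes, 65 passed the filter on low counts and were tested, and Dnajb7, Dnajb8, Dnajc5b, Dnajc5g, Dnajc22, Hspb7 and Hspb9 did not pass.

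The study sequenced messenger RNA bound to polyribosomes from medium spiny neurons of the nucleus accumbens, a brain region of reward and motivation, in female mice. An HA-tagged ribosomal protein (RiboTag, RT) was switched on by Cre in D1-Cre-RT mice, which mark the neurons of the D1 dopamine receptor, or in A2A-Cre-RT mice, which mark the neurons of the D2 receptor and whose libraries are called D2 here. Polyribosomes were pulled down with an antibody to HA, and each library pooled 4 mice with similar social interaction ratios. Stressed females repeatedly watched another mouse being defeated, which is called chronic witness defeat stress (CWDS), and were named Resilient or Susceptible from their social interaction scores. Control mice carried the same transgenes. The 6 groups were D1 Control, D1 Resilient, D1 Susceptible, D2 Control, D2 Resilient and D2 Susceptible, with 5 libraries each and 30 in all, from tissue taken 24 h after the social interaction test. The tag limits each group to cells in which the Cre driver was active, and any RNA that the pulldown carried along from other cells is also counted. The ages of the mice are not used here, and p-values measure the spread between these pooled libraries.

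HSP70 proteins bind and release unfolded stretches of protein in a cycle driven by ATP. J-domain proteins (DNAJ) deliver the substrate and start ATP hydrolysis, exchange factors such as the HSP110 proteins free the nucleotide, and HSP90 takes over clients at a later stage of folding. In neurons the system also serves the synapse: HSC70 (Hspa8) strips clathrin from vesicles together with auxilin (Dnajc6), and it keeps SNARE proteins in shape together with cysteine string protein (Dnajc5). Under proteotoxic stress, heat shock factor binds repeats of nGAAn upstream of inducible members such as Hspa1a and Hspa1b, while stress in the endoplasmic reticulum acts through other elements upstream of Hspa5 and its partners.

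The upstream sequences of the members that stand for these programmes are shown first, because the levels of their genes are the subject of what follows. They come from RefSeq on GRCm38.p6, where 58 of the 72 genes had an entry and 14 did not, and they cover the 250 bases before each annotated start. Hspa1a and Hspa1b are the stress-inducible HSP70 pair. Their windows, chr17:34972157-34972406 and chr17:34959239-34959488, both on the minus strand, were identical at 247 of 250 positions (98.8%). Hspb1 (HSP27), on the plus strand with its window at chr5:135887669-135887918, is shown because it had the widest difference between the neuron classes. Capitals mark a pair of adjoining heat shock units, GAANNTTC or TTCNNGAA, which read the same on both strands.

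Hspa1a: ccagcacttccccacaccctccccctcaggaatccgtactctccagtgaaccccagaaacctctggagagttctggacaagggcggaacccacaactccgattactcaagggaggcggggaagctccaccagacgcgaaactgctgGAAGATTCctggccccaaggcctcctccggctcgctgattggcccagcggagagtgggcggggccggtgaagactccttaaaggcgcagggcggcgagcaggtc

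Hspa1b: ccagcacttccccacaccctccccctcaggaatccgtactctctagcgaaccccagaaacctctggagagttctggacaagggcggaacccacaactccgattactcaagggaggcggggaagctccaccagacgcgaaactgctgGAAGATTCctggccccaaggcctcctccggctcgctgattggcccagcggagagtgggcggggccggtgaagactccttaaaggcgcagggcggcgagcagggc

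Hspb1: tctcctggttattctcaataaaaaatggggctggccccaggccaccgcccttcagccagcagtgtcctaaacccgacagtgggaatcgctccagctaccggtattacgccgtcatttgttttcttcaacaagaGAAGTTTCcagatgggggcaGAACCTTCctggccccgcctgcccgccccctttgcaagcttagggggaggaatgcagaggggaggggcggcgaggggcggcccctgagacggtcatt

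The stricter pattern of 3 adjoining units, GAANNTTCNNGAA or TTCNNGAANNTTC, occurred in 0.466% of 32851 windows of all genes, or upstream of 0.514% of 27025 genes, and in the windows of 3 of the 58 members (5.17%): Hspd1, Hspe1 and Dnajb6. The pattern of 2 units, which every match to 3 units also contains, occurred in 12.8% of windows, or upstream of 14.5% of genes, and in the windows of 14 of the 58 members (24.1%). Hspd1 and Hspe1, the mitochondrial chaperonin HSP60 and its lid HSP10, lie head to head on chromosome 1 and share 2 overlapping matches, shown on the plus strand that Hspe1 uses. The third site is that of Dnajb6, a suppressor of protein aggregation, on its plus strand. Each is shown as a stretch of 30 bases with the match in capitals.

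Hspe1 and Hspd1, chr1:55088051-55088080: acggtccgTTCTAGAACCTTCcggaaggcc

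Hspe1 and Hspd1, chr1:55088056-55088085: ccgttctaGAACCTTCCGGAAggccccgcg

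Dnajb6, chr5:29735844-29735873: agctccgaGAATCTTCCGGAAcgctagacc

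The endoplasmic reticulum stress element, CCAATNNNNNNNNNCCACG on either strand, occurred in 0.113% of all windows, or upstream of 0.13% of genes, and upstream of 3 members. These were Hspa5 (BiP, the HSP70 of the endoplasmic reticulum), Hsp90b1 (GRP94, its HSP90) and Dnajc3 (P58IPK, one of its J proteins). The sites are written along the strand of each gene, plus for Hspa5 and Dnajc3 and minus for Hsp90b1, and the one nearer the start of Hsp90b1 matches on the opposite strand. A match is a description of the sequence alone.

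Hspa5, chr2:34772020-34772049: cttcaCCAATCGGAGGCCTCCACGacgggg

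Dnajc3, chr14:118937822-118937851: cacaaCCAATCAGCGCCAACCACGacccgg

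Hsp90b1, chr10:86705527-86705556: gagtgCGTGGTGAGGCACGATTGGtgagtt

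Hsp90b1, chr10:86705632-86705661: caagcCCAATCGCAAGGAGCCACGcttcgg

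Gene counts per library ranged from 28996168 to 65882152, and the members held 1.39% to 1.93% of them in 29 libraries and 0.476% in D1 Susceptible library 1. D2 Susceptible libraries 1 and 2 stand apart, with 15822 and 16525 genes that had a count, the 2 lowest of the 30. In D1 Susceptible library 1, 53.3% of the counted reads were assigned to no gene. Its normalisation factor by TMM was 0.34, against 0.957 to 1.08 in the other libraries. Its levels given below are therefore scaled up far more than those of the others. Main results that rest on D2 Susceptible libraries 1 and 2 or on D1 Susceptible library 1 are given with and without them. The summed level of 6 D1-class markers was 1695 to 2552 CPM (a counts-per-million scale, normalised by TMM) in the 15 D1 libraries and 269 to 699.9 CPM in 13 of the 15 D2 libraries. It reached 1215 CPM in D2 Control library 5 and 1816 CPM in D2 Resilient library 5, and both had the lowest sums of 5 D2-class markers among D2 libraries, 7287 and 4867 CPM. The D2-class sum was 1120 to 2771 CPM in the D1 libraries.

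The cytosolic HSP90 genes and HSC70 were the highest members in the polyribosome RNA, and the inducible HSP70 pair was near the low end. Levels of different genes are compared here per length, as CPM divided by the merged exon length in kilobases (RPKM), as the mean of 30 libraries. Hsp90ab1, the constitutive cytosolic HSP90, was the highest member at 1058 RPKM. Its inducible relative Hsp90aa1 followed at 717 and Hspa8, the constitutive HSP70 of the cytosol, at 558 RPKM. Below these 3 came Hspd1 at 134, Hsp90b1 at 121, Hspa5 at 114 and the mitochondrial HSP70, Hspa9, at 104. The first 3 places were the same with the length of the longest transcript in place of merged exons, whereas the order below them changed. The highest J proteins per length were Dnaja2 at 82.7, Dnajc7 (named after its level was seen), which binds HSP70 and HSP90 and whose exons overlap the myelin gene Cnp on the other strand, at 79, Dnajc5 at 57.3 and Dnaja1 at 56.8. Dnaja1 and Dnaja2 are the general cytosolic partners of HSC70.

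Hspa1b stood at 1.63 and Hspa1a at 1.24 RPKM. In CPM, Hspa1a ranged from 1.4 to 6.54 and Hspa1b from 1.25 to 6.91 over the 30 libraries. They lie 9952 bases apart on chromosome 17, and reads that fit both copies cannot be assigned with certainty, so the split between them is uncertain. The same holds for reads that Hspa8, Hsp90aa1, Hsp90ab1, Hspd1 and Hspe1 may share with processed copies elsewhere, since the treatment of reads with several matches is not given in the sources used here. At the low end were Hspb6 at 0.479, Hspa4l at 0.28, Hspb2 at 0.137, the testis HSP70 Hspa1l at 0.0888 and Dnajb13, known from sperm and cilia, at 0.0674. Of the members that were not tested, Dnajc5g had no count in any library and Dnajb7 and Dnajb8 had counts in 1 library each. Spread within groups differed widely between members. The SD within groups, on log2 of CPM plus 0.1, was 0.079 for Dnajc5 and 0.084 for Dnaja3, a mitochondrial J protein, against 0.45 and 0.46 for Hspa1a and Hspa1b and 0.80 for Hspb1. The added 0.1 narrows the spread at low CPM, as for Hspb1 in D1.

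**Figure D1:**
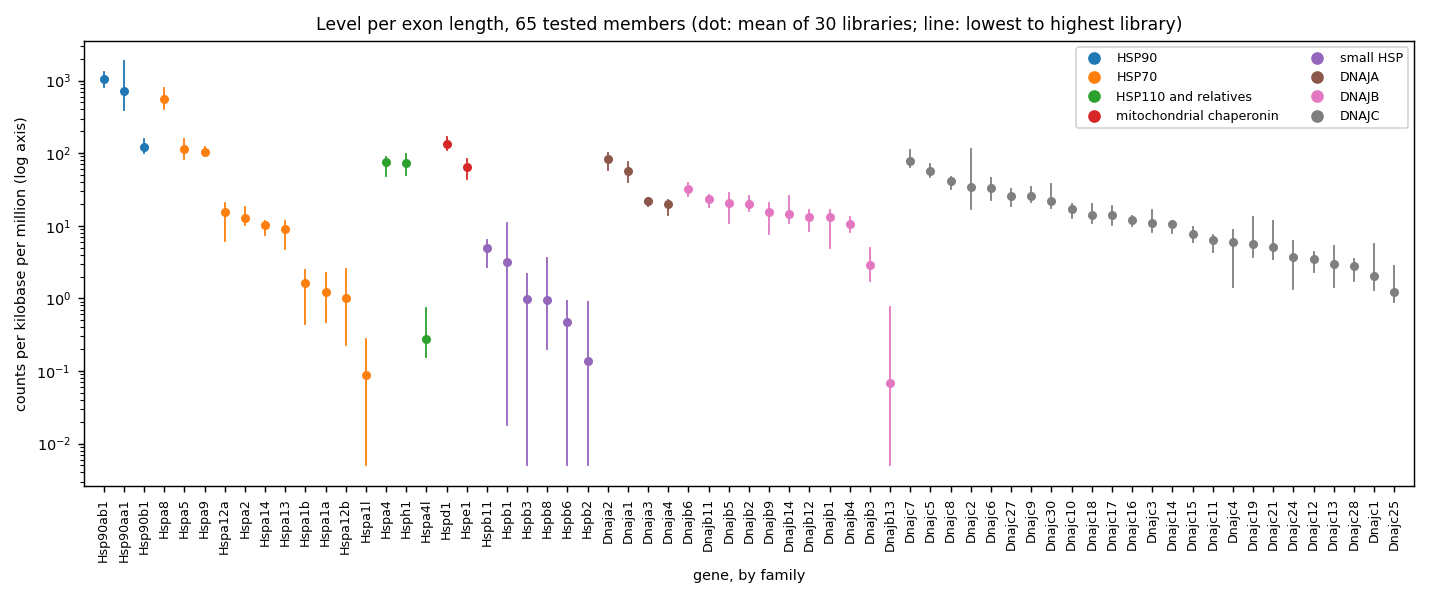
Level of the 65 tested members in RPKM per merged exon length (log axis), with a dot for the mean of 30 libraries and a line from the lowest to the highest library; libraries at 0 are drawn at the foot of the axis. Hsp90ab1 at 1058, Hsp90aa1 at 717 and Hspa8 at 558 stand above the rest, while Hspa1a and Hspa1b stay near 1.

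The first question was whether D1 and D2 neurons differ in chaperone RNA without stress. In Control libraries, 8 of 65 members passed the test, which is 12.3%, beside 8.3% of all 19368 genes tested (edgeR, adjusted p under 0.05 over all genes). Of these, 6 were higher in D1, beside a background of 3.51%, and 2 were higher in D2, beside 4.8%. The median log2 difference, D1 minus D2, was 0.10 over the members and 0.00 over all genes. Higher in D1 were Hspa8, its partners Dnajc6 and Dnaja1, and Hspa5, Hspa12a and Dnajc15, and higher in D2 were Hspb1 and Hspa12b. Without D2 Susceptible libraries 1 and 2, which share in the estimate of spread, 14 members passed, beside 15.3% of all genes, and 25 (38.5%) passed by limma voom, beside 28.5%. As all libraries are bulk pulldowns, a lower share of cells and a lower level of RNA per cell cannot be told apart.

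Hspa8 (chr9:40800984-40810087, plus strand, GENCODE M21 on GRCm38) read 2599, 2615, 3322, 3116 and 3361 CPM in D1 Control libraries 1 to 5 and 2351, 2327, 2288, 1836 and 2186 CPM in D2 Control libraries 1 to 5. Every D1 Control library lay above every D2 Control library, with means of 3003 ± 373 and 2198 ± 212 CPM (SD, n = 5; log2 difference of 0.45 with SE 0.104 and adjusted p 0.00451). Dnajc6, auxilin (chr4:101496648-101642799, plus strand), read 180.4, 211, 272, 241 and 248 CPM in D1 Control and 168, 170.4, 168, 145 and 193 CPM in D2 Control. Only D1 Control library 1 fell inside the D2 range, which ran from 145 to 193 CPM (log2 difference of 0.45 with SE 0.101 and adjusted p 0.00355). Dnaja1 (chr4:40722150-40737149, plus strand) read 471, 530.4, 658, 604 and 659 CPM in D1 Control and 442, 460.3, 444, 391 and 484 CPM in D2 Control. The same library 1 was again the only overlap (log2 difference of 0.40 with SE 0.101 and adjusted p 0.0106). The annotated exons of Dnaja1 overlap Smu1 on the other strand, and since the strand setting of the counting is not given, its counts are uncertain to that extent.

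Hspa12a, a distant HSP70 relative that is abundant in brain (chr19:58795750-58943654, minus strand), read 162, 165, 188, 176 and 173 CPM in D1 Control and 130.1, 121, 139, 90.3 and 136 CPM in D2 Control, with no overlap (log2 difference of 0.49 with SE 0.149 and adjusted p 0.0357). Its exons overlap Eno4 on the other strand. Its call was lost without D1 Control library 3, 4 or 5 or D2 Control library 2 or 4, with adjusted p up to 0.126. Hspa5 read 467, 481, 567, 549.8 and 664 CPM in D1 Control and 439.6, 445, 461, 371 and 475 CPM in D2 Control, where D1 Control library 1 lay inside the D2 range (log2 difference of 0.32 with SE 0.0999 and adjusted p 0.0442). Its call was lost without D1 Control library 3, 4 or 5 or D2 Control library 1, 2 or 4, with adjusted p up to 0.152. Dnajc15, an inhibitor of respiratory complex I in the mitochondrial inner membrane, was close to the threshold (log2 difference of 0.28 with SE 0.0901 and adjusted p 0.0498) and lost its call without any of 8 of the 10 Control libraries, the exceptions being D1 Control library 4 and D2 Control library 5, with adjusted p up to 0.122. The calls of Hspb1, Hspa12b, Hspa8, Dnajc6 and Dnaja1 stood whichever of the 10 libraries was left out. Without D1 Control library 1, Hspa4, Hsp90ab1, Hspd1 and Hsph1 passed as well, with adjusted p of 0.0402, 0.0111, 0.0484 and 0.0086. Hsph1 also passed without D1 Control library 2 or D2 Control library 3.

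**Figure D2:**
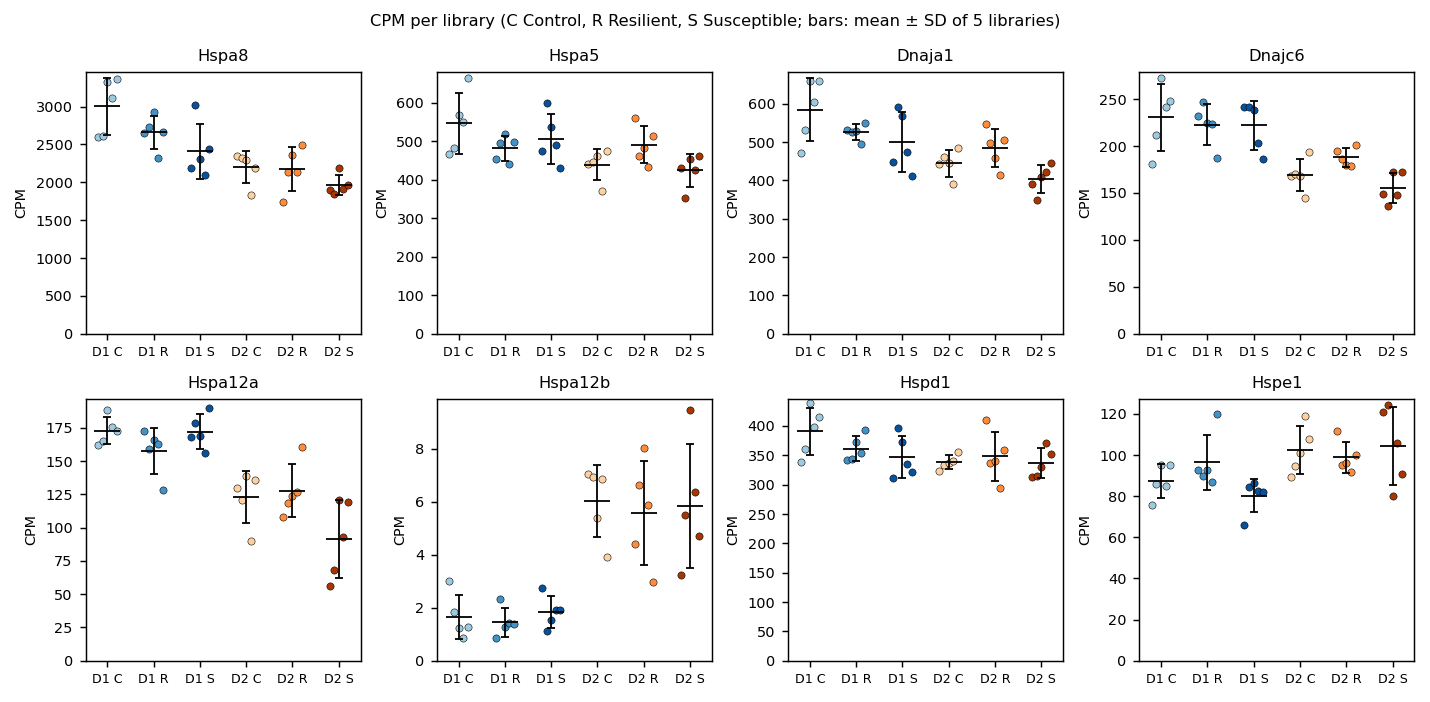
CPM in each of the 30 libraries for 8 members, with bars for the mean ± SD of 5 libraries per group and axes from 0. Hspa8, Dnaja1, Dnajc6 and Hspa12a sit higher in D1 than in D2 groups, Hspa12b lower, and Hspd1 and Hspe1, which share an upstream stretch, do not follow the same order.

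With the 3 conditions averaged, 15 libraries of each class were compared, and 25 of 65 members (38.5%) passed the test, beside 29.3% of all genes. Higher in D1 were 18 members (27.7%), beside 13.8% of all genes, and higher in D2 were 7 (10.8%), beside 15.5%. The median log2 difference was 0.09 over the members and 0.00 over all genes. The Control libraries enter both class comparisons, so these are not independent of each other. Without D2 Susceptible libraries 1 and 2 the count was 24 (36.9%), beside 30% of all genes. Of the 24 members, 18 were higher in D1 and 6 higher in D2. Of all 20427 genes tested there, 3303 were called higher in D1 and 2828 higher in D2.

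**Figure D3:**
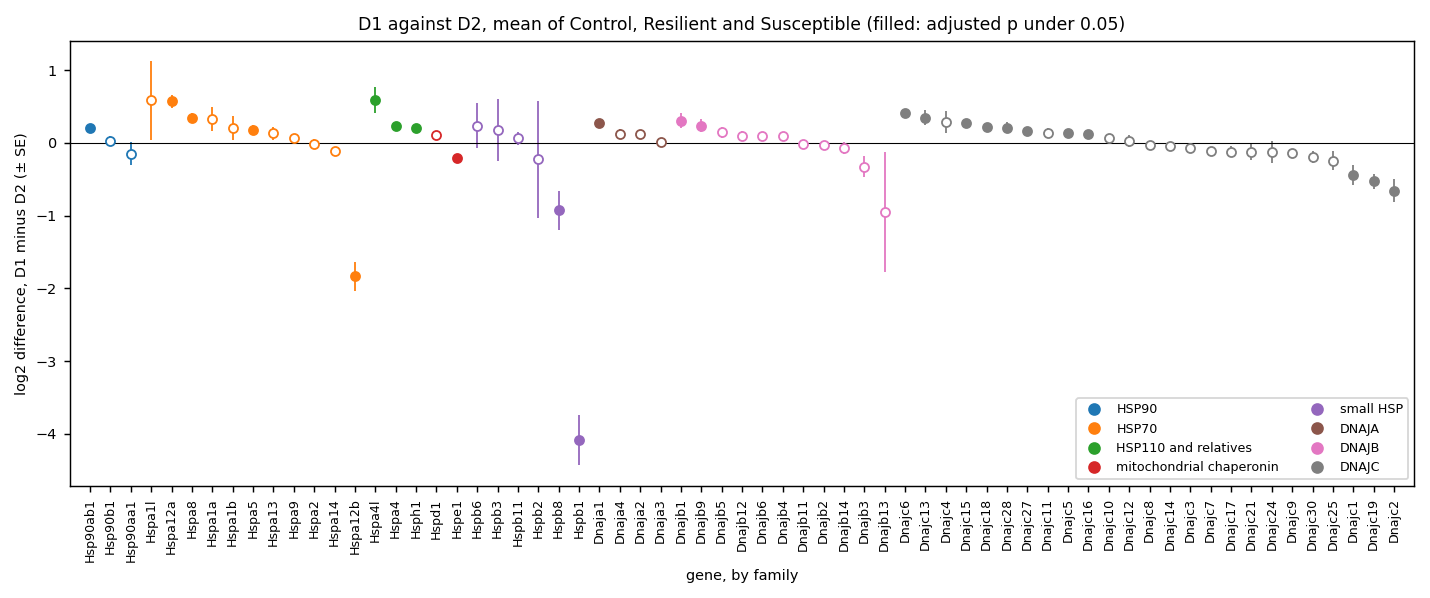
Log2 difference between D1 and D2 libraries, averaged over Control, Resilient and Susceptible, for the 65 tested members by family, with bars for the SE and filled symbols for adjusted p under 0.05. Most filled symbols lie between 0.1 and 0.6 above the line, and Hspb1 (-4.09) and Hspa12b (-1.83) lie far below it.

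Among the HSP70 genes, 3 of 11 were higher in D1 and 1 was higher in D2, beside 13.8% and 15.5% of all genes. Hspa8 ran from 2091 to 3361 CPM (median 2653) in D1 and from 1739.8 to 2491 CPM (median 2143) in D2. The ranges overlapped, but 14 of 15 D1 libraries exceeded the D2 median (log2 difference of 0.35 with SE 0.0598 and adjusted p 3.89e-05). Hspa12a ran from 128 to 190.0 CPM (median 168) in D1 and from 56.1 to 161 CPM (median 121) in D2, with all 15 D1 libraries above the D2 median (log2 difference of 0.57 with SE 0.0859 and adjusted p 5.31e-06), and the difference was 0.49 without D2 Susceptible libraries 1 and 2. Hspa5 was higher in D1 as well (log2 difference of 0.18 with SE 0.0577 and adjusted p 0.0172). The inducible Hspa1a read 0.33 with adjusted p 0.155. It passed without D2 Susceptible library 2, at 0.47 with adjusted p 0.0201, a library where it read 6.54 CPM beside 1.4 to 4.62 CPM in the other 14 D2 libraries. Hspa1a also passed by limma voom (0.46, adjusted p 0.00314) and without D2 Susceptible libraries 1 and 2 (0.40, 0.0275). Leaving out D1 Susceptible library 1 and D2 Resilient library 5 as well gave 0.39 (0.0398). All 15 D1 libraries lay above its D2 median. Hspa1b (0.21, 0.363 for log2 difference and adjusted p), Hspa9 (0.07, 0.275) and Hspa14 (-0.12, 0.07), which is named here after its values were seen, did not pass by edgeR as reported. Hspa14 was called higher in D2 by DESeq2 (adjusted p 0.0271), with DESeq2's size factors in edgeR (0.0395) and by limma voom (0.048), and Hspa9 higher in D1 by limma voom (0.09, adjusted p 0.0245). In all, limma voom called 33 members (50.8%) between the classes, beside 39.8% of all genes.

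The 3 genes of HSP110 and its relatives, which act as exchange factors of HSP70, were all higher in D1, beside 13.8% of all genes. Hspa4 ran from 402 to 496 CPM (median 457) in D1 and from 266 to 432 CPM (median 394) in D2, and all 15 D1 libraries lay above the D2 median (log2 difference of 0.23 with SE 0.0548 and adjusted p 0.00202). Hsph1, HSP105, ran from 479 to 703 CPM (median 565) in D1 and from 366 to 575 CPM (median 497) in D2 (log2 difference of 0.21 with SE 0.054 and adjusted p 0.00425). Hspa4l was low in both, from 2.24 to 8.73 CPM (median 3.5) in D1 and from 1.86 to 4.67 CPM (median 2.46) in D2 (log2 difference of 0.59 with SE 0.179 and adjusted p 0.0133). Its highest value was in D1 Susceptible library 1, and without that library it read 0.45 (adjusted p 0.0352). Of the cytosolic HSP90 pair, Hsp90ab1 was higher in D1, with 2677 to 3923 CPM (median 3405) against 2482 to 3243 CPM (median 2995) (log2 difference of 0.20 with SE 0.0465 and adjusted p 0.00144). Hsp90aa1 did not pass (log2 difference of -0.15 with SE 0.161 and adjusted p 0.534), and its sign turned to 0.15 (adjusted p 0.372) without D2 Susceptible libraries 1 and 2. By limma voom Hsp90aa1 was called higher in D1, at 0.27 with adjusted p 0.0099. Hsp90b1 did not pass by edgeR either (log2 difference of 0.03 with SE 0.0628 and adjusted p 0.808), but limma voom called it higher in D1 (0.13, adjusted p 0.0379).

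Of the mitochondrial chaperonin pair, only Hspe1 passed by edgeR as reported. Hspe1 was higher in D2, from 80.3 to 124 CPM (median 100.1) against 66 to 119.8 CPM (median 86.2) in D1 (log2 difference of -0.21 with SE 0.0633 and adjusted p 0.0108), and this call was lost without D2 Susceptible libraries 1 and 2 (-0.14, adjusted p 0.0709). Hspd1, with 311 to 439 CPM (median 362) in D1 and 294 to 409.8 CPM (median 337) in D2, did not pass (log2 difference of 0.10 with SE 0.0492 and adjusted p 0.117). It passed in the D1 direction without D1 Control library 1 (0.14, adjusted p 0.0327), D2 Resilient library 1 (0.13, 0.0478) or D2 Susceptible library 4 (0.13, 0.0408). By limma voom Hspd1 was called higher in D1 (0.13, adjusted p 0.00548), and Hspe1 did not pass (-0.11, adjusted p 0.0571). Whether Hspe1 and Hspd1 differ from each other was not tested. Their annotated exons overlap on opposite strands, so reads in the shared stretch cannot be told apart.

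Of the DNAJA and DNAJB genes, DNAJA held 1 call of 4 and DNAJB 2 of 11, all higher in D1, as were 13.8% of all genes. Dnaja1 ran from 411 to 659 CPM (median 530.4) in D1 and from 349.9 to 547 CPM (median 444) in D2 (log2 difference of 0.27 with SE 0.0581 and adjusted p 0.000509), while Dnaja2 did not pass by edgeR as reported (log2 difference of 0.12 with SE 0.06 and adjusted p 0.146). Dnaja2 was called higher in D1 by limma voom (0.11, adjusted p 0.0494) and by edgeR without D2 Susceptible library 3 (0.15, 0.0479). Dnajb1, the classical inducible HSP40, ran from 37.1 to 52.3 CPM (median 47.7) in D1 and from 15.8 to 49.5 CPM (median 40.1) in D2 (log2 difference of 0.30 with SE 0.102 and adjusted p 0.0249). Its difference was 0.21 without D2 Susceptible libraries 1 and 2. Dnajb9, an endoplasmic reticulum J protein, passed narrowly (log2 difference of 0.24 with SE 0.0892 and adjusted p 0.0435) and not without those libraries (0.17, adjusted p 0.0573). Its call was also lost when D1 Control library 3, D1 Resilient library 3, D1 Susceptible library 2 or D2 Control library 4 was left out, with adjusted p up to 0.0578. Dnajb6 read 0.09 with adjusted p 0.196, and limma voom called it higher in D1 (0.12, adjusted p 0.0334).

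The 25 tested DNAJC genes, which are the most varied in role, held 8 calls higher in D1 and 3 higher in D2, beside 13.8% and 15.5% of all genes. Dnajc6 ran from 180.4 to 272 CPM (median 232) in D1 and from 136 to 202 CPM (median 172) in D2, with every D1 library above the D2 median (log2 difference of 0.40 with SE 0.0582 and adjusted p 2.5e-06). Dnajc5, cysteine string protein, differed by little but evenly, with 369.5 to 489 CPM (median 413) in D1 and 327 to 402 CPM (median 384) in D2 (log2 difference of 0.13 with SE 0.0376 and adjusted p 0.00757). Dnajc13, the endosomal protein RME-8, had a log2 difference of 0.35 with SE 0.104 and adjusted p 0.0116, and 0.26 without D2 Susceptible libraries 1 and 2. Its highest value, 62.1 CPM, was in D1 Susceptible library 1, and without that library it read 0.29 (adjusted p 0.0279). Also higher in D1 were Dnajc15 (0.27, 0.000156 for log2 difference and adjusted p), Dnajc18 of the endoplasmic reticulum membrane (0.22, 0.00216) and Dnajc27, a Rab-like GTPase with a J domain (0.16, 0.00996). Dnajc16 (0.13, 0.0341) and Dnajc28 (0.21, 0.0455) are named after their values were seen. The call of Dnajc16 was lost without D1 Susceptible library 1 (adjusted p 0.0665), and that of Dnajc28 without D1 Control library 5, D1 Susceptible library 2, D2 Control library 4 or D2 Resilient library 4 (adjusted p up to 0.0556).

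The 3 DNAJC genes higher in D2 were each highest in D2 Susceptible libraries 1 and 2. Dnajc2 (MPP11), which docks with Hspa14 on the ribosome, ran from 84.7 to 186 CPM (median 131) in D1 and from 145 to 575 CPM (median 156) in D2 (log2 difference of -0.66 with SE 0.157 and adjusted p 0.0021). The difference was -0.37 (adjusted p 0.00924) without the 2 libraries. Dnajc19, part of the import motor of the mitochondrial inner membrane, had a log2 difference of -0.53 with SE 0.101 and adjusted p 0.000145, and -0.36 (adjusted p 0.000134) without them. Dnajc1, an endoplasmic reticulum J protein at the ribosome exit, had a log2 difference of -0.45 with SE 0.136 and adjusted p 0.0131, and it lost its call without them (-0.20, adjusted p 0.0924). The exons of Dnajc19 overlap Fxr1 and those of Dnajc1 overlap Mllt10 on the other strand, so their counts are uncertain to that extent.

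Hspb1 (chr5:135887919-135889563, plus strand), an ATP-independent holdase, showed the widest class difference of the members tested. It ran from 0.0188 to 1.51 CPM (median 0.331) in D1 and from 2.28 to 11.1 CPM (median 5.59) in D2, with no overlap between the 15 and 15 libraries (log2 difference of -4.09 with SE 0.344 and adjusted p 1.03e-10). In 3 D1 libraries it had at most 3 counts. In Control libraries alone it read 0.535, 0.46, 0.0188, 0.185 and 0.194 CPM in D1 and 7.56, 7.42, 4.8, 8.96 and 5.13 CPM in D2 (log2 difference of -4.57 with SE 0.607 and adjusted p 5.97e-06). Hspa12b (chr2:131127280-131146321, plus strand), known from blood vessel endothelium, read 3.01, 1.86, 1.24, 0.868 and 1.26 CPM in D1 Control and 7.06, 6.93, 5.38, 6.87 and 3.9 CPM in D2 Control (log2 difference of -1.87 with SE 0.338 and adjusted p 0.000379). Over all conditions it ran from 0.844 to 3.01 CPM (median 1.43) in D1 and from 2.96 to 9.46 CPM (median 5.9) in D2, where D1 Control library 1 was above the lowest D2 library (log2 difference of -1.83 with SE 0.196 and adjusted p 1.11e-08). Hspb8 (HSP22), the partner of Bag3 in clearing misfolded proteins, ran from 0.388 to 3.21 CPM (median 1.13) in D1 and from 1.01 to 7.06 CPM (median 2.13) in D2 (log2 difference of -0.93 with SE 0.265 and adjusted p 0.00794). Its highest value was in D2 Susceptible library 2, and it read -0.72 (adjusted p 0.021) without libraries 1 and 2.

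The summed markers of blood vessels were higher in the D2 libraries as well. The summed level of 7 endothelial markers was 15.7 to 44.2 CPM in the D1 libraries and 73.1 to 369.5 CPM in the D2 libraries, and each of the 7 was higher in every D2 library than in every D1 library. All 7 averaged over 1 CPM in the 15 D1 libraries, although Tek averaged under 1 CPM in D1 Resilient. The sum of 7 mural cell markers was 12 to 31 CPM in D1 and 57.5 to 144 CPM in D2, where 2 of 7 did not overlap, and Acta2 and Myh11 averaged under 1 CPM in both classes and were at 0 in at least 1 D2 library each. The share of all genes without overlap between the classes is not given here, and 29.3% of all genes passed the test between them. D2 Resilient library 5, with the lowest endothelial sum of the D2 libraries, 73.1 CPM, had 2.35 CPM of Hspb1 and the lowest D2 value of Hspa12b, 2.96 CPM. D2 Resilient library 1, with a sum of 209.7 CPM, had the lowest Hspb1 in D2, 2.28 CPM. D2 Susceptible library 1, with the highest sum, 369.5 CPM, had the highest Hspb1, 11.1 CPM, but an Hspa12b of 3.22 CPM. The highest Hspa12b, 9.46 CPM, was in D2 Susceptible library 3, where the endothelial sum was 257.8 CPM. The part of vessel RNA in the difference of Hspb1, Hspa12b and Hspb8 was not tested. Among 7 oligodendrocyte markers the sums overlapped, at 391 to 1044 CPM in D1 and 445 to 1923 CPM in D2, and among 7 astrocyte markers they also did, at 248 to 696 CPM in D1 and 276 to 623 CPM in D2. The sums of 7 microglial markers were 10.3 to 42.2 CPM in D1 and 14.4 to 48.7 CPM in D2.

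**Figure D4:**
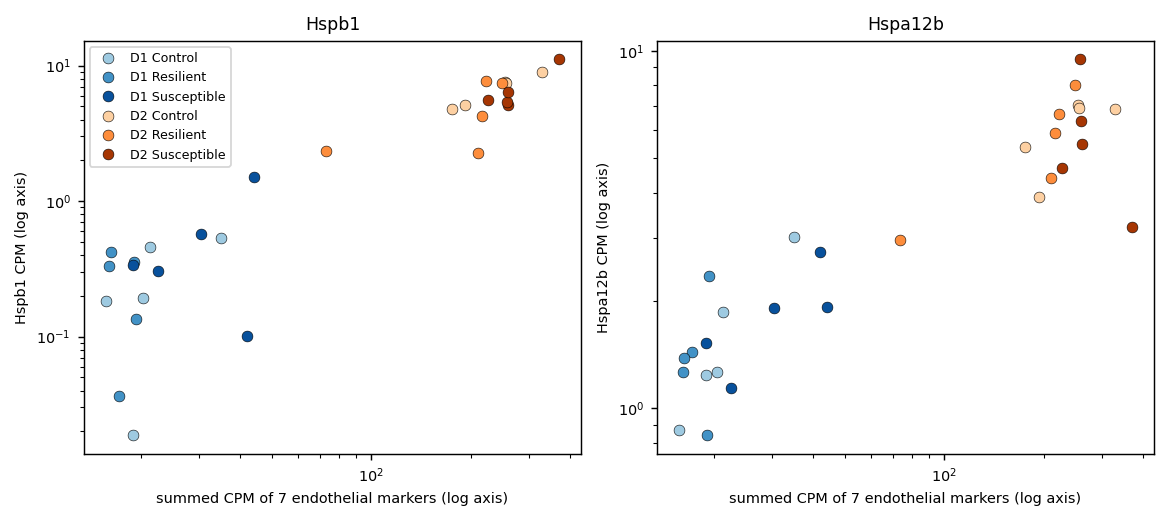
Hspb1 and Hspa12b CPM in each of the 30 libraries against the summed CPM of 7 endothelial markers (all axes logarithmic), coloured by group. The D1 libraries lie at 15.7 to 44.2 CPM of endothelial markers with Hspb1 at 1.51 CPM or less, and the D2 libraries at 73.1 to 369.5 CPM with Hspb1 at 2.28 CPM or more.

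Partners of the chaperones outside the 72 genes were read from lists of known complexes. Of the 7 subunits of the cytosolic chaperonin CCT that were matched, out of 8 listed, 5 were higher in D1 and none was higher in D2 in the average of conditions, with a median log2 difference of 0.20 beside 0.00 for all genes. Over all genes, 13.8% were higher in D1 and 15.5% higher in D2, which is the background for each list here. Without D2 Susceptible libraries 1 and 2, 4 of 7 CCT subunits passed, all higher in D1, with a median of 0.12. Of all 20427 genes tested there, 3303 were called higher in D1, and 30% passed in either direction. Examples in the fit of all libraries were Cct8 at 0.25 (SE 0.0544, adjusted p 0.000727) and Cct4 at 0.29 (SE 0.0785, adjusted p 0.00569). Of 15 co-chaperones of HSP90, 7 were higher in D1 and 1 was higher in D2, with a median of 0.18. Stip1, which hands clients from HSP70 to HSP90, read 0.27 (SE 0.0833, adjusted p 0.0147), and Fkbp5, a brake on the glucocorticoid receptor, was the one higher in D2 at -0.23 (SE 0.0446, adjusted p 0.000231). Of 10 exchange factors of HSP70, Hyou1 and Bag2 were higher in D1, and Bag3 (-0.66, adjusted p 0.00212) and Bag5 (-0.29, adjusted p 1.87e-05) were higher in D2, with a median of 0.02. None of the 5 genes listed as Hsf1 and its relatives (Hsf1, Hsf2, Hsf4, Hsf5 and Hsbp1, which binds heat shock factor) passed, at a median of 0.08 and with 1 at an unadjusted p under 0.05, and 1 passed without D2 Susceptible libraries 1 and 2. Of 15 genes of the endoplasmic reticulum stress response, Calr and Canx were higher in D1 and Creld2 in D2, with a median of 0.03.

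The second question was whether witnessed defeat changed chaperone RNA within D1 neurons. No member passed the edgeR test in any of the 3 comparisons, where the background was 0% in each, and neither DESeq2 nor limma voom called one. In Susceptible against Control, 4 of 65 members (6.15%) had an unadjusted p under 0.05, beside 2.4% of all genes, and all 4 were lower in Susceptible. The median log2 difference was -0.07 over the members and -0.01 over all genes. In Resilient against Control it was 0 of 65, beside 2.6% of all genes, and in Susceptible against Resilient it was 2 of 65, beside 3.49%. The comparisons share Control or Resilient libraries and are not independent.

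The 4 members were Hspa8, Dnaja1, Dnajb11, an endoplasmic reticulum J protein, and Hsp90ab1. Hspa8 read 2599, 2615, 3322, 3116 and 3361 CPM in D1 Control, 2653, 2737, 2926, 2315 and 2660.5 CPM in D1 Resilient and 2183, 3016, 2314, 2091 and 2436 CPM in D1 Susceptible. Of the 5 Susceptible libraries, only library 2 reached the Control range (log2 difference of -0.32 with SE 0.104, unadjusted p 0.00438 and adjusted p 1). Library 2 had the lowest summed D2-class markers of the D1 libraries, 1120 CPM, and the sums in Susceptible libraries 1, 3, 4 and 5 were 2771, 1597, 2671 and 2372 CPM, against 2254 CPM in Control library 1 and 1331 to 1613 CPM in Control libraries 2 to 5. Astrocyte markers summed to 601 and 543 CPM in Susceptible libraries 1 and 5, against 329 to 352 CPM in libraries 2 to 4. The sum was higher in Control library 1, at 696 CPM, and was 327 to 407 CPM in Control libraries 2 to 5. The part of these in the Hspa8 values was not tested. Without D1 Susceptible library 1 the difference was -0.28 (unadjusted p 0.0156). The means of the Resilient libraries lay between, at 2658 ± 221 CPM against 3003 ± 373 in Control and 2408 ± 364 in Susceptible (SD, n = 5), and Resilient against Control read -0.18 (unadjusted p 0.0995). Dnaja1 read 449, 592, 569, 474 and 411 CPM in D1 Susceptible beside the Control values given above, and the groups overlapped (log2 difference of -0.23 with SE 0.101, unadjusted p 0.0305 and adjusted p 1). Hsp90ab1 (log2 difference of -0.17 with SE 0.0805, unadjusted p 0.0453 and adjusted p 1) and Dnajb11 (log2 difference of -0.17 with SE 0.078, unadjusted p 0.0414 and adjusted p 1) overlapped too. Without D1 Susceptible library 1, these 3 had an unadjusted p above 0.05, and Hspb1 was at 1.25 with p 0.0392. In the other direction, the smallest unadjusted p were those of Hspb1 (log2 difference 1.08, p 0.0698), Hspa1b (0.43, p 0.133) and Dnajb12 (0.16, p 0.204).

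In D1 Susceptible against Resilient, Hspe1 read 66, 84.7, 86.2, 82.6 and 82.3 CPM against 92.9, 89.8, 92.8, 86.8 and 119.8 CPM (log2 difference of -0.26 with SE 0.11, unadjusted p 0.0239 and adjusted p 1). No Susceptible library exceeded the lowest Resilient library, 86.8 CPM. Hspb1 (log2 difference of 1.22 with SE 0.581, unadjusted p 0.0439 and adjusted p 1) was highest in D1 Susceptible library 4 at 1.51 CPM, which also had the highest endothelial sum of the D1 libraries, 44.2 CPM. Neither passed after adjustment, and without D1 Susceptible library 1 Hspe1 had an unadjusted p above 0.05. The inducible pair was low: Hspa1a read 4.74, 5.26, 3.32, 3.44 and 4.18 CPM in D1 Control and 3.86, 3.8, 4.15, 5.59 and 3.98 CPM in D1 Susceptible, and Hspa1b read 5.89, 3.17, 4.24, 5.63 and 2.62 and 6.29, 5.28, 4.51, 6.14 and 6.91 CPM. Both overlapped throughout. For Resilient against Control in D1, the smallest unadjusted p belonged to Dnajc12 (0.25, p 0.0741), a co-chaperone of aromatic amino acid hydroxylases, Dnajc14 (0.12, p 0.104) and Dnaja3 (0.09, p 0.191) among higher members, and to Hspa5 (-0.18, p 0.0776), Hspa8 and Dnajb13 among lower ones.

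In D2 neurons no member passed the edgeR test either. The background was 0.00516% in Susceptible against Control, 0% in Resilient against Control and 0.0516% in Susceptible against Resilient. At an unadjusted p under 0.05 there were 12 of 65 members (18.5%) in Susceptible against Control, 8 higher and 4 lower, beside 15.7% of all genes. There were 18 of 65 (27.7%) in Susceptible against Resilient, 10 higher and 8 lower, beside 19.1%, and 1 of 65 in Resilient against Control, beside 4.2%. Without D2 Susceptible libraries 1 and 2 these 3 counts were 1, 1 and 4 of 65, beside 1144, 1113 and 1801 of 20427 genes. DESeq2 called 3 members (4.62%) in Susceptible against Resilient, beside 5.24% of all genes: Dnajc2 (0.96, adjusted p 0.03), Dnajc1 (0.73, 0.047) and Hspa12a (-0.47, 0.0389), and none in the other 2 comparisons, and limma voom called none in all 3.

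These differences came with D2 Susceptible libraries 1 and 2. Dnajc2 (chr5:21757267-21785251, minus strand) read 575, 427, 146, 217 and 159 CPM in D2 Susceptible libraries 1 to 5, against 213, 147, 145, 145 and 149 CPM in D2 Resilient and 146, 148, 156, 224 and 191 CPM in D2 Control. Libraries 1 and 2 were the highest of all 30, and libraries 3 to 5 lay within the range of the other D2 groups. Susceptible against Resilient read 0.93 (SE 0.274, adjusted p 0.0862), and 0.11 without the 2 libraries. Susceptible against Control read 0.82 (SE 0.273, adjusted p 0.185), and 0.00 without them.

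Hsp90aa1 (chr12:110690605-110702728, minus strand) read 7316, 5853, 2196, 2531 and 1987 CPM in D2 Susceptible, against 2321, 2159, 2092, 3534 and 2712 CPM in D2 Control and 3339, 2302, 2427, 1979 and 2183 CPM in D2 Resilient. The 28 libraries other than D2 Susceptible 1 and 2 lay between 1540 and 3534 CPM. Hsp90ab1 went the other way, at 2588, 2482, 2964, 2928 and 2986 CPM in D2 Susceptible, and its values in libraries 1 and 2 were below those of the 28 others. The ratio of Hsp90aa1 to Hsp90ab1 per exon length was 2.16 in library 1 and 1.8 in library 2, against 0.383 to 0.868 (median 0.576) in the 28 others. D2 Control library 4 was the highest of the 28 and D1 Control library 1 the lowest.

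**Figure D5:**
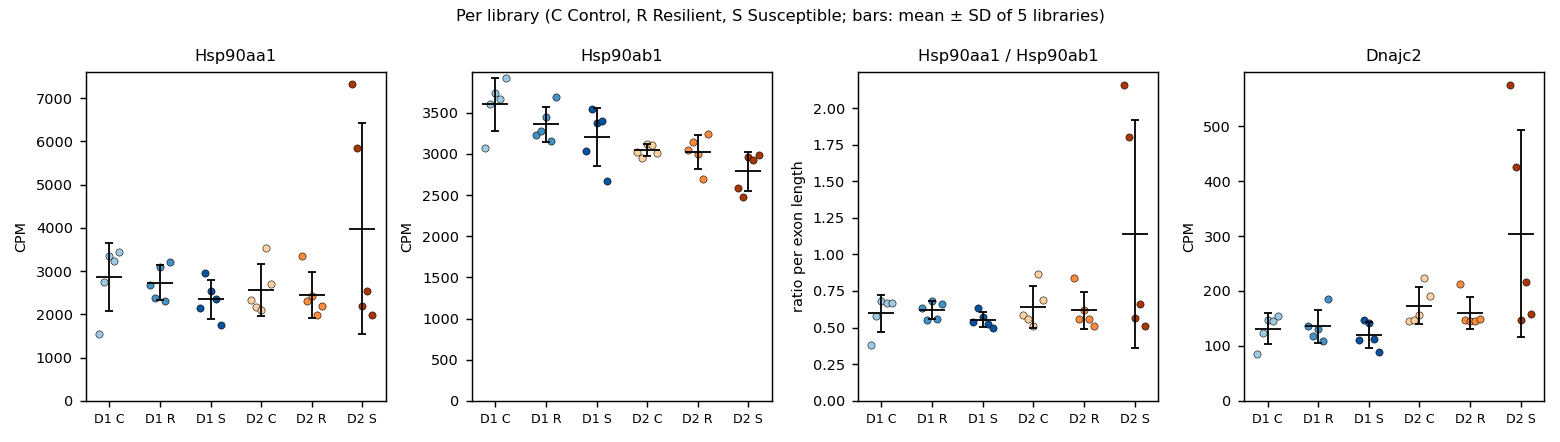
Hsp90aa1 and Hsp90ab1 CPM, their ratio per exon length, and Dnajc2 CPM in each of the 30 libraries, with bars for the mean ± SD of 5 libraries per group and axes from 0. D2 Susceptible libraries 1 and 2 lie above the 28 others for Hsp90aa1, the ratio and Dnajc2, and below them for Hsp90ab1.

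Both of these libraries were above the 28 others for 10 of the 65 tested members and below them for 14. Over all 19368 genes tested, 10.3% were above in both and 15.7% below in both. The 10 included Hsp90aa1, Hspe1 and the J protein genes Dnajb14, Dnajc1, Dnajc2, Dnajc7, Dnajc19, Dnajc21, Dnajc25 and Dnajc30, and the 14 included Hsp90ab1, Hspa4, Hsph1, Hspa12a, Dnaja1, Dnajb1, Dnajb5 and Dnajb9. They were named after the values were seen. As given above, exons of Hspe1, Dnajc1, Dnajc7, Dnajc19, Dnaja1 and Hspa12a overlap other genes on the other strand. For Dnajc7 that gene is Cnp, which is among the oligodendrocyte markers. The counts of these members are uncertain to that extent. In the same libraries the oligodendrocyte markers summed to 1923 and 1486 CPM, against 391 to 1420 CPM in the 28 others, and the endothelial markers to 369.5 and 260.2 CPM, of which the first was the highest of the 30. The 6 ependymal and ciliated markers summed to 21.4 and 14 CPM, against at most 12.6 CPM in the 28 others, and 4 of the 6 (Ccdc153, Tmem212, Dynlrb2 and Hydin) averaged under 1 CPM in D2 Susceptible. The part of these in the chaperone values was not tested.

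Hspa12a was the member with the smallest p among those lower in D2 Susceptible than Resilient. It read 56.1, 68.5, 121, 93.2 and 119 CPM in D2 Susceptible, 108, 119, 124, 127 and 161 CPM in D2 Resilient and 130.1, 121, 139, 90.3 and 136 CPM in D2 Control (log2 difference of -0.48 with SE 0.149, unadjusted p 0.00296 and adjusted p 0.0906), and the difference was -0.21 (adjusted p 0.968) without libraries 1 and 2. Dnajc4 in Susceptible against Control (log2 difference of -0.79 with SE 0.258, unadjusted p 0.00437 and adjusted p 0.178) read 1.78 and 2.84 CPM in libraries 1 and 2 against 5.87 to 7.58 CPM in libraries 3 to 5 and 7.24 to 9.94 CPM in Control, and its difference was -0.36 without the 2 libraries. Dnajc14, which escorts the D1 receptor out of the endoplasmic reticulum, was the exception in that the 2 libraries did not stand out: it read 74.6, 77.1, 74.2, 76.8 and 75.4 CPM in D2 Susceptible and 65.8, 71.6, 69.6, 68.4 and 51.5 CPM in D2 Control, with no overlap (log2 difference of 0.21 with SE 0.0745, unadjusted p 0.00822 and adjusted p 0.193), and 0.20 (adjusted p 0.781) without them. Dnajb5 (-0.35, unadjusted p 0.0118) read -0.10 without them, and Dnajc1 turned from 0.56 to -0.12.

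Without D2 Susceptible library 3, 3 members (4.62%) passed against Control, Dnajc2, Hspa12a and Dnajc4, beside 4.19% of all genes, and 8 (12.3%) passed against Resilient, beside 9.93%. Without library 5, 7 members (10.8%) passed against Resilient, beside 8.11% of all genes, among them Hsp90aa1 at 0.87 (adjusted p 0.0458), Dnajc2 at 1.09 (0.0181) and Hspa12a at -0.60 (0.0199). Without library 4 no member passed against either group. With libraries 1 and 2 left out, no member passed in the 6 stress comparisons. In Resilient against Control the smallest unadjusted p were those of Dnajc10, a disulfide reductase of the endoplasmic reticulum (0.20, p 0.0391), Dnaja2 (0.18, p 0.0917) and Dnajb9 (0.27, p 0.0937) among higher members, and Dnajb2 (-0.18, p 0.0655), Dnajc17 (-0.19, p 0.145) and Dnajc5 (-0.10, p 0.145) among lower ones. Hspa1a read 1.4, 6.54, 3.3, 4.09 and 1.88 CPM in D2 Susceptible and 4.2, 3.22, 3.07, 2.25 and 4.03 CPM in D2 Control, while Hspa1b read 5.02, 1.25, 3.61, 4.39 and 3.91 and 4.9, 4.13, 6.16, 4.22 and 4.89 CPM. Both inducible genes overlapped between the groups.

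Whether stress acted differently in the 2 classes was tested as the D1 change minus the D2 change. No member passed in any of the 3 tests by edgeR, DESeq2 or limma voom, and the background by edgeR was 0% in each. At an unadjusted p under 0.05 there were 10 of 65 members for Susceptible against Control, beside 7.79% of all genes, 2 for Resilient against Control, beside 4.99%, and 9 for Susceptible against Resilient, beside 12.4%. Without D2 Susceptible libraries 1 and 2 these 3 counts were 3, 7 and 2 of 65, beside 743, 1893 and 1082 of 20427 genes. The largest difference among the 10 was that of Dnajc4 at 0.97 (SE 0.364, adjusted p 0.637), followed by Dnajc2 at -0.94 and Hsp90aa1 at -0.92. Without D2 Susceptible libraries 1 and 2 these were 0.53, -0.12 and -0.08. For Susceptible against Resilient it was Dnajc2 at -1.10 (SE 0.385, adjusted p 0.278), and -0.29 without them.

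No gene of the 5 partner lists passed in Susceptible against Control or Resilient in either class by edgeR. In D2 Susceptible against Resilient, all 7 CCT subunits had an unadjusted p under 0.05, beside 19.1% of all genes. Their median was -0.35, beside -0.03 over all genes. In D2 Susceptible against Control 5 of 7 had such a p, beside 15.7% of all genes, with a median of -0.26. Without D2 Susceptible libraries 1 and 2 these counts were 0 and 0 of 7, with medians of -0.11 and -0.04. For D1 Susceptible against Control the CCT median was -0.14, with 1 of 7 at an unadjusted p under 0.05, beside 2.4% of all genes. The median of the 15 HSP90 co-chaperones was -0.10 in D1 Susceptible against Control and -0.15 in D2 Susceptible against Resilient, the latter -0.06 without the 2 libraries. The list of Hsf1 and its relatives and that of endoplasmic reticulum stress genes had medians of -0.14 and -0.06 in D1 Susceptible against Control, with 0 of 5 and 1 of 15 at an unadjusted p under 0.05.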

How the data were processed

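Gene counts per library were deposited by the authors, made with HISAT2 and HTSeq on GRCm38 (mm10), per the submitters' processing notes. The sources used here do not give the strand setting, the handling of multiply matching reads or the annotation release. Of 55335 gene IDs, 55154 got a symbol from GENCODE M21 and 181 did not. HTSeq's 5 summary lines, 10.1% to 53.3% of each library, were left out. Libraries were grouped by their labels. Genes were filtered by filterByExpr (minimum count 10, minimum total 15), which kept 19368, scaled by TMM and fitted in 1 quasi-likelihood model of 6 groups (edgeR 4.0.16, limma 3.58.1, R 4.3.3), with Benjamini-Hochberg adjustment over all genes and a threshold of 0.05. The SE is the absolute log2 difference divided by the square root of F. A floor of 3 counts is 0.043 to 0.304 CPM; it covers counting error only.

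The members and lists were chosen with earlier results of these data known. Named members were 20 fixed by role, those called (at most 12 a direction, by adjusted p), the 3 with the smallest unadjusted p a direction in each stress comparison, the 5 highest and 5 lowest per length, and those not tested; others are marked, or named for a sequence site or a count. Alternatives were DESeq2 1.42.0, its size factors, no filter, the compared groups alone, limma voom with quality weights, a replicate block, 4 libraries left out (D2 Susceptible 1 and 2, D1 Susceptible 1 and D2 Resilient 5), each library left out in turn and, chosen after seeing the data, D2 Susceptible 1 and 2 left out. Tables and plots used pandas 2.3.3 and matplotlib 3.10.9.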

Additional observations from a re-analysis of the deposited data

Results flagged for a closer look

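In 22 of 282 groups of 5 libraries checked over the named members, the highest or lowest library lay apart from the other 4 by over 0.71 of the group's range (Dixon's test). Chance alone flags about 1 in 20 groups, and 19 genes were involved. Among the HSP genes, Hspa1a was high in D1 Susceptible library 4 at 5.59 CPM, where the next library had 4.15 CPM. Hspe1 was high in D1 Resilient library 5 at 120 CPM (next 92.9) and low in D1 Susceptible library 1 at 66 CPM (next 82.3). Hsp90b1 was high in D2 Control library 5 at 531 CPM, and Hspb1 in D2 Susceptible library 1 at 11.1 CPM, the library with the highest endothelial marker sum. Hspb8 reached 7.06 CPM in D2 Susceptible library 2, where the next library had 2.91 CPM. Hspa4l was high in D1 Susceptible library 1 at 8.73 CPM (next 3.84) and in D2 Control library 5 at 4.67 CPM (next 2.2), and Hspa1l in D2 Control library 3 at 0.564 CPM.

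Among the J proteins, D2 Control library 4 was low for Dnaja2 at 172 CPM and high for Dnajb2 at 108 CPM and Dnajb3 at 5.15 CPM. D1 Resilient library 5 was low for Dnaja3 at 81.1 CPM and high for Dnajc19 at 26 CPM. D2 Resilient library 1 was low for Dnajb12 at 38.8 CPM and high for Dnajc2 at 213 CPM. Dnajc18 was high in D1 Control library 1 at 100 CPM (next 78.3) and in D1 Susceptible library 5 at 110 CPM (next 83.6). Dnajc14 was low in D2 Resilient library 4 at 62.9 CPM, Dnajb13 high in D2 Susceptible library 2 at 2.1 CPM, Dnajc4 high in D1 Susceptible library 1 at 11 CPM, and Dnajc15 high in D2 Susceptible library 4 at 49 CPM.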

How the results depend on the processing

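In the Control comparison of the classes, 8 members passed, beside 8.3% of all genes, against 14 (15.6% of all genes) with only the compared groups fitted, 25 (28.5%) with limma voom, 14 (16.2%) without the 4 libraries that stand apart and 14 (15.3%) without D2 Susceptible libraries 1 and 2, the last chosen after seeing the data. With 1 library left out, it gave 5 to 11 members, where 4.95% to 9.07% of all genes passed. D2 Susceptible against Resilient gave 3 members by DESeq2 (5.24% of all genes), and 0 to 8 with 1 library left out, and D2 Susceptible against Control 0 to 3, with 9.93% and 4.19% of all genes at the highest counts. The other counts of calls stayed within 1.5 times. Signs turned for Dnajc1 in D2 Susceptible against Control without the 4 libraries (-0.12) and without D2 Susceptible 1 and 2 (-0.12), for Dnajc19 in D2 Susceptible against Resilient by voom (-0.016), and for Hsp90aa1 between the classes by voom (0.27), without the 4 libraries (0.13) and without D2 Susceptible 1 and 2 (0.15). None of these was called in the test as reported, voom called Hsp90aa1 (adjusted p 0.0099), and the causes were not tested. With the replicate number as a block, 7 members passed in Control and 23 in the average of conditions, beside 7.73% and 27.5% of all genes. The numbers did not pair the libraries: deviations of 75 same-numbered pairs correlated at -0.17 to 0.08, and 2 of 30 libraries correlated best with their own number. Low counts limit Hspb1 in D1, where 3 libraries had at most 3 counts, Dnajb13 (9 D1 and 6 D2 libraries), Hspb2 (8 and 7) and Hspa1l (1 and 4).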
